A study of Homo sapiens with 8 samples.

Results

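Genes that the tumour suppressor p53 is known to switch on were followed across U2OS cells, an established human osteosarcoma line, expressing the actin mutant G13R or, as the control, GFP. They were the rows of the FPKM table whose gene column matched a list of 31 textbook p53 targets, in 6 classes by role: cell cycle arrest, feedback on p53, death receptors, intracellular death genes, DNA repair, and metabolism and stress. All 31 were found among the 22504 genes of the table. For 28 of them the level was at least 1 FPKM (fragments scaled to transcript length and to the mapped fragments of the library) in every one of the 8 libraries, and these 28 were tested. The other 3 were TNFRSF10A, TNFRSF10D and SPATA18, which did not exceed 0.0912 FPKM in any library.

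The 4 groups held 2 poly(A) RNA libraries each: G13R cells after serum stimulation, G13R cells in normal growth, GFP cells after serum stimulation, and GFP cells in normal growth. G13R actin is known not to polymerize, and U2OS cells are known to have a working p53 response and a silenced CDKN2A gene, whose product ARF restrains MDM2. CDKN2A was at 0 to 0.523 FPKM. The labels do not say which actin gene carries the mutation, how the proteins were expressed, how long serum was applied, whether it had been withdrawn before, or whether the libraries of a group came from separate cultures. The p-values therefore rest on the spread within these pairs of libraries, part or all of which may be technical.

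p53 is a transcription factor that is kept low because MDM2, the product of one of its own targets, marks it for degradation. When DNA damage, nucleolar stress or oncogene activity blocks MDM2, p53 accumulates, binds its response elements and raises genes for arrest, repair or death. CDKN1A, which encodes the kinase inhibitor p21, also leads to repression of mitotic genes through the DREAM complex. Several of these genes are read out by other factors as well: PLK2 and PLK3 are known as growth factor inducible kinases, SESN1 and BBC3 as FOXO targets, and GADD45A and GDF15 as targets of stress factors such as ATF4. Only transcripts were measured, so neither p53 protein nor its binding is seen here.

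The promoter sequences are shown because they show which targets carry a p53 element close to their start. RefSeq promoter windows, which run from 250 bases before to 50 bases after an annotated start in the build GRCh38.p14, were matched for 23 of the 31 members. The p53 response element was searched on both strands as its pair of palindromic repeats with up to 3 mismatches in all, and the C and G at the core of each repeat were required. Each window was counted by its best match, the one with the fewest mismatches and then the shortest spacer. That match had no spacer in the windows of 6 of 23 members (26.1%) and of 340 of 27305 genes (1.25%). A match without a spacer beside a better one with a spacer was thus not counted. With a spacer of 0 to 13 bases the element was in the windows of 10 of 23 members (43.5%) and 4172 genes (15.3%). The elements of the 6 members without a spacer, and that of DDB2, which matched with 0 mismatches and a 1-base spacer, are printed from the gene's sense strand with the repeats in capitals and their flanks in lower case.
MDM2: gctGGTCAAGTTCAGACACGTTCcga
AEN: gccGGGCTTGCCCGGGCATGTGGgag
FAS: cctGGACAAGCCCTGACAAGCCAagc
PMAIP1: cggGAGCGTGTCCGGGCAGGTCGcgc
SESN1: tctGGACAAGTCTCCACAAGTCAgaa
GDF15: cacAGCCATGCCCGGGCAAGAACtc
DDB2: tttGAACAAGCCCtGGGCATGTTTggc

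In GRCh38.p14 the repeats lay at chr12:68808923-68808942 for MDM2, chr15:88621306-88621325 for AEN, chr10:88991309-88991328 for FAS and chr18:59899811-59899830 for PMAIP1, all on the plus strand. Those of GDF15 (chr19:18386186-18386205) and DDB2 (chr11:47214979-47214999) were also on the plus strand, and that of SESN1 (chr6:109009018-109009037) was on the minus strand. The MDM2 element began 94 and 101 bases before 2 annotated starts, the FAS element 122 bases before its start and the AEN element 34 bases before. GDF15 and DDB2 carried theirs 28 and 5 bases after the start. FDXR, PLK2 and ZMAT3 held matches with spacers of 10, 3 and 6 bases and with 2, 3 and 3 mismatches. The CArG box, the element read by the serum response factor SRF, had no exact match in the windows of the 23 members (0 of 23), against 438 of all genes (1.6%). For so few members, 0 of 23 lies near the share of all genes. A match is a description of letters and not a shown binding site, and elements outside these windows, such as the distal ones known for CDKN1A, were not searched. The members with a printed element were spread over the outcomes of serum described below: MDM2, FAS, PMAIP1, GDF15 and DDB2 rose in GFP cells, AEN fell and SESN1 did not pass the test.

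The libraries differed in ways that touch these genes. GFP serum replicate 2 stood apart from the rest: on the first principal component, which held 53.9% of the variance, it lay at 44.7, against 26.0 for GFP serum replicate 1, 11.8 and 14.5 for the G13R serum libraries and -25.3 to -21.6 for the normal growth libraries. In that library 22 of 28 members were above their value in GFP serum replicate 1, against 54.9% of all genes tested. The median log2 ratio was 0.22 for the members and 0.03 for all genes. In G13R serum 20 of 28 members were above replicate 1 in replicate 2, against 54% of all genes, with medians of 0.08 and 0.02. In normal growth it was 11 of 28 members in G13R and 14 of 28 in GFP cells. ACTB, a check on the labels if the mutant is of that gene, was at 7949 to 8676 FPKM in G13R serum and 10010.5 to 11245 FPKM in G13R normal libraries, against 2543 to 2615 FPKM in GFP serum and 2602 to 2779 FPKM in GFP normal libraries. Of 9 osteoblast markers 5 were at 1 FPKM or more in every library, namely RUNX2, ALPL, COL1A1, SPP1 and SPARC. Of the others, IBSP, SP7 and COL1A2 did not exceed 0.0798, 0.158 and 0.293 FPKM, and BGLAP was at 0.145 to 1.4 FPKM. The summed osteoblast list was at 546 to 592 FPKM in G13R serum and 470 to 512 FPKM in G13R normal libraries, against 693 to 848 FPKM in GFP serum and 601 to 689 FPKM in GFP normal libraries. SPARC made up most of that sum, at 384 to 765 FPKM over all libraries, and single markers differed from it: SPP1 was at 41.4 and 41.3 FPKM in G13R normal libraries, against 33.1 and 29.4 FPKM in GFP normal libraries. Leukocyte and endothelial markers summed to at most 1.48 FPKM in any library, and neural ones to 23.5 to 29.9 FPKM. The 6 epithelial markers summed to 13.6 to 14.4 FPKM in G13R serum and 7.39 to 10.6 FPKM in G13R normal libraries. In GFP cells they summed to 17.8 to 19.2 FPKM after serum and 7.16 to 10.1 FPKM in normal growth. CLDN4 was the highest after serum, and by group means CLDN4 and EPCAM were higher after serum in both kinds of cell. CDH1 and KRT19 were lower after serum in both, and KRT5 and KRT14 were lower in G13R and higher in GFP cells. CDH1 averaged 0.891 FPKM in G13R serum and 2.68 FPKM in G13R normal libraries, and 0.993 FPKM in GFP serum and 3.27 FPKM in GFP normal libraries. The part of these markers in the results was not tested.

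The p53 targets covered a wide range of levels. By the mean of all 8 libraries BAX was highest at 226 FPKM, followed by GADD45A at 159.7, CDKN1A at 134, PHLDA3 at 94.3 and MDM2 at 77.6 FPKM, and APAF1 was lowest at 3.44 FPKM. The most abundant members thus came from arrest, intracellular death and feedback classes alike, while the decoy receptor TNFRSF10C, SESN1 and TP53INP1 were among the low ones. Neighbours in this order such as MDM2 at 77.6 and PLK2 at 73.98 FPKM overlapped over their libraries. FPKM values are scaled to length, so these levels may be set side by side between genes, but the reads behind them are unknown. The span of 13 tested members overlapped that of another gene, and no source used here states whether counting used strand, so their reads cannot be told apart from those of the partner. Some partners were much lower than the member, such as ACTA2 at 3.1 to 7.63 FPKM for FAS and CPM at 1.21 to 3.53 FPKM for MDM2. GTPBP2, at 35.9 to 40.6 FPKM, was above POLH in every library, LSM3, at 16.9 to 18.9 FPKM, was above XPC in normal growth and below it after serum, and NDUFAF6 was above TP53INP1 in most libraries.

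**Figure D1:**
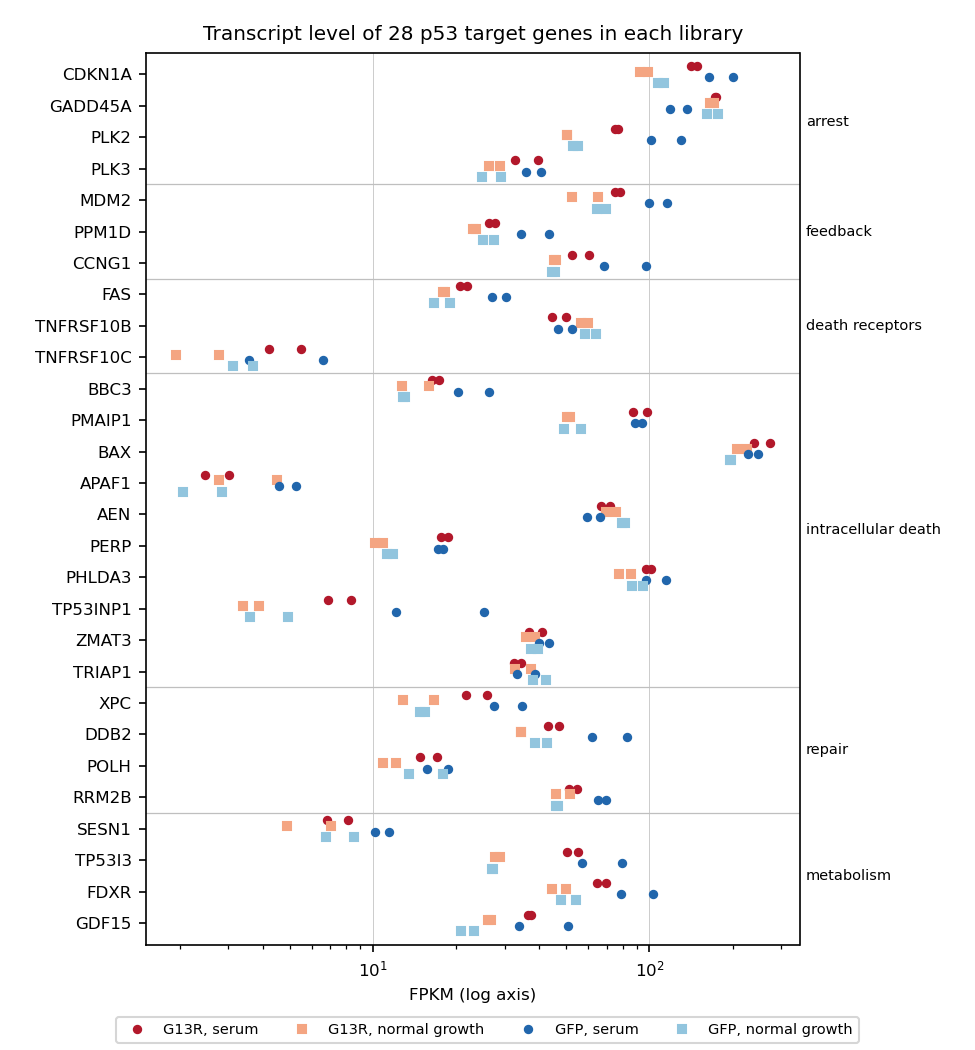
The level of each of the 28 tested p53 target genes in FPKM (log axis) is plotted for every library, with 1 point per library, circles for serum, squares for normal growth, and red shades for G13R and blue shades for GFP cells. The serum circles lie right of the normal growth squares of the same cells for most genes, GADD45A, AEN and TNFRSF10B being exceptions in GFP cells, and the TP53INP1 libraries of GFP serum at 12.2 and 25.3 FPKM lie far right of its other libraries.

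Serum came with higher levels of most p53 targets in both kinds of cell. In G13R cells 7 of 28 members rose and 0 fell, and in GFP cells 19 rose and 2 fell (limma on log2(FPKM + 1), adjusted p under 0.05 over all genes tested). Over the 12996 genes tested, 8.26% were called higher and 4.62% lower in G13R cells, and 14.9% higher and 15.7% lower in GFP cells. The class counts below are to be read beside these shares. The classes hold 3 to 10 tested members each, so a single call moves their shares much. The median log2 fold change of the members was 0.34 in G13R cells, against 0.04 over all genes tested, and 0.61 in GFP cells, against 0.01 over all genes. Fold changes above 0 were seen for 24 of 28 members (85.7%) in each kind of cell, against 55.5% of all genes in G13R and 50.9% in GFP cells. In G13R cells 21 members were higher and 1 lower after serum without overlap, against 4462 and 3428 of the 12996 genes. In GFP cells 22 were higher and 3 lower without overlap, against 4330 and 4290 genes. Separation of 2 from 2 libraries was thus common, and where it is named below it is not by itself a sign of change. The members and the further gene lists below were chosen with earlier results of these data known. Their comparisons with all genes are thus not independent of these data. The 7 members that rose in G13R cells, CDKN1A, PLK2, PMAIP1, PERP, XPC, TP53I3 and FDXR, were all among the 19 of GFP cells. In bulk RNA a change in the share of cells that express a gene cannot be told apart from a change per cell. The responses share no libraries, but all 8 libraries share 1 estimate of the spread.

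No called member turned its direction under any of the 16 alternatives, but the counts moved with settings and with single libraries. In G13R cells 10 members were called under quantile normalization or with the replicate number as a block, and 12 with only the compared libraries fitted. Without G13R serum replicate 2 the count in G13R cells was 2, without G13R serum replicate 1 it was 4, and without either GFP serum library it was 14. In GFP cells it ranged from 17 without either GFP normal growth library to 21 without GFP serum replicate 1, and it was 19 without GFP serum replicate 2. Without that library the median in GFP cells was 0.57, and without GFP serum replicate 1 it was 0.72. Of the calls in G13R cells, FDXR was lost in 6 of 16 alternatives, XPC and PLK2 in 5 each, and CDKN1A and TP53I3 in 2 each. Of those in GFP cells, BAX was lost in 8 of 16, AEN in 6, APAF1 in 5 of 15, PLK3 and GADD45A in 3 each, PPM1D in 2, and CCNG1 and GDF15 in 1 each.

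**Figure D2:**
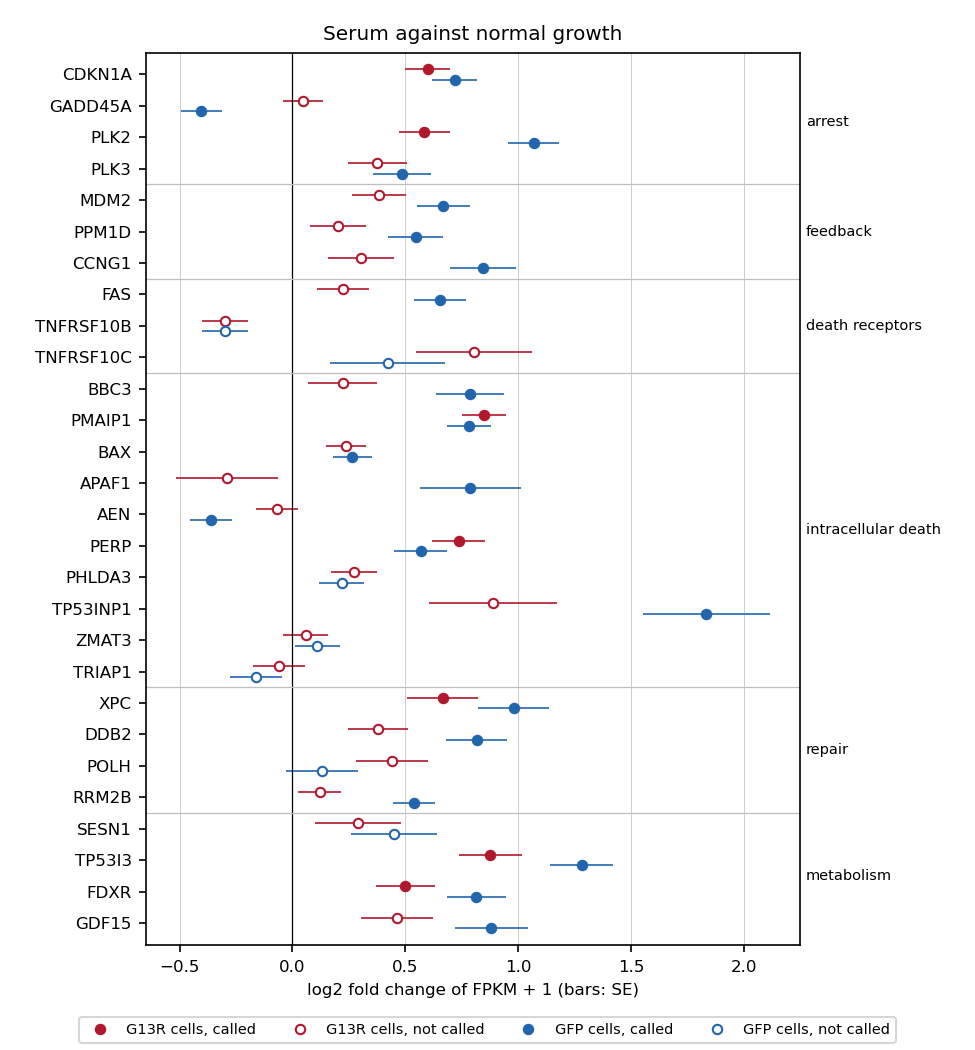
The log2 fold change of FPKM + 1, serum against normal growth, is plotted for each tested p53 target with its standard error, red for G13R and blue for GFP cells, filled where called and open where not. Filled points lie right of 0 for 7 genes in G13R cells and 19 in GFP cells, and only GADD45A and AEN have a filled point left of 0, both in GFP cells.

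**Figure D3:**
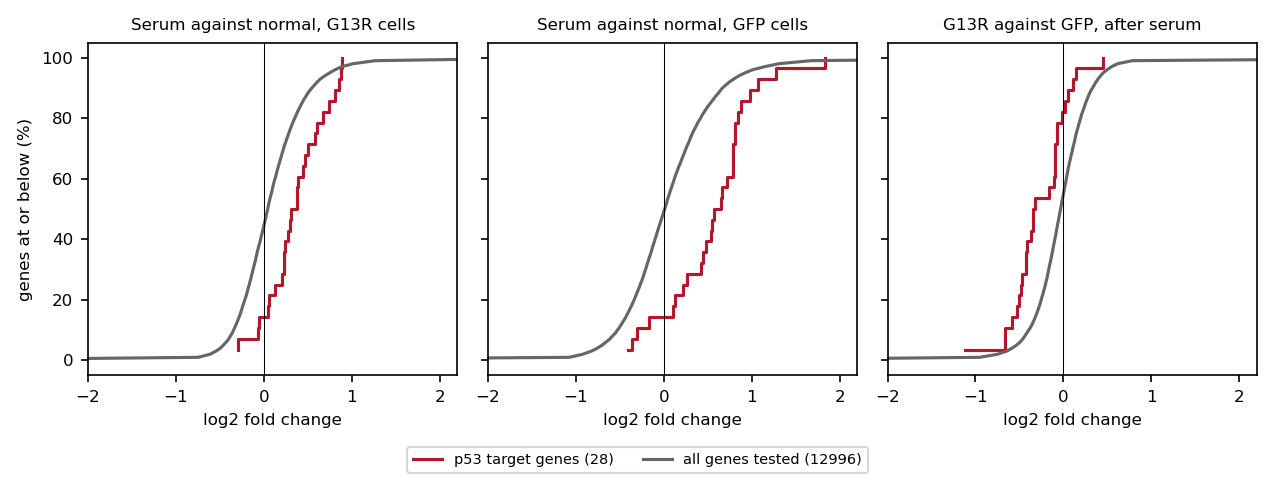
The cumulative share of genes (percent) at or below each log2 fold change is drawn for the 28 tested p53 targets in red and all 12996 genes tested in grey, for serum in G13R cells, serum in GFP cells and G13R against GFP cells after serum. Over most of its course the red line lies right of the grey one in the serum panels, with medians of 0.34 and 0.61. In the third panel it lies mostly left of the grey one, with a median of -0.33. The lines cross at the upper end of the serum panels, where the fold changes of all genes reach farther.

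Of the arrest genes, 2 of 4 rose in G13R cells and 3 rose and 1 fell in GFP cells. CDKN1A (chromosome 6, 36644305 to 36655116, hg19 as for all gene spans below) had 142 and 149 FPKM in G13R serum libraries, against 99.1 and 92.4 FPKM in G13R normal libraries. In GFP cells CDKN1A had 165 and 201 FPKM after serum, against 107 and 113 FPKM in normal growth. Serum libraries were above normal growth libraries in both, and the log2 fold changes were 0.60 ± 0.10 (SE) in G13R cells (limma, adjusted p = 0.00547) and 0.72 ± 0.10 in GFP cells (adjusted p = 0.000797). PLK2 (chromosome 5, 57749809 to 57756087), a polo-like kinase that acts in centriole duplication and stress checkpoints, had 76.9 and 74.9 FPKM in G13R serum libraries, against 50.3 and 50.3 FPKM in G13R normal libraries. In GFP cells PLK2 had 101 and 130.2 FPKM after serum, against 53.03 and 55.2 FPKM in normal growth. The groups did not overlap in either kind of cell, with log2 fold changes of 0.58 ± 0.11 in G13R cells (limma, adjusted p = 0.0102) and 1.07 ± 0.11 in GFP cells (adjusted p = 0.000196). Its relative PLK3 averaged 36.1 ± 5.03 FPKM in G13R serum and 27.5 ± 1.79 FPKM in G13R normal libraries, and 38.03 ± 3.31 FPKM in GFP serum and 26.9 ± 3.08 FPKM in GFP normal libraries (SD, n = 2 each). It rose in GFP cells by 0.49 ± 0.13 on the log2 scale (limma, adjusted p = 0.0185), and its value of 0.38 ± 0.13 in G13R cells did not pass (adjusted p = 0.0852).

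GADD45A (chromosome 1, 68150744 to 68154021), a stress sensor that binds cyclin-dependent kinase 1 and PCNA, went the other way in GFP cells. It had 175 and 173 FPKM in G13R serum libraries, against 171 and 165 FPKM in G13R normal libraries. In GFP cells GADD45A had 137 and 118 FPKM after serum, against 177 and 161 FPKM in normal growth. It fell in GFP cells, with a log2 fold change of -0.40 ± 0.09 (limma, adjusted p = 0.00782) and both serum libraries under both normal growth libraries, and was at 0.05 ± 0.09 in G13R cells (adjusted p = 0.773). The call in GFP cells was lost with no filter, under quantile normalization and without GFP normal growth replicate 1, with adjusted p up to 0.127 in limma.

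The 3 feedback genes, which restrain p53 or its activating kinases, all rose in GFP cells, while 0 of 3 passed the test in G13R cells. Over all genes tested, 14.9% were called higher in GFP and 8.26% in G13R cells, so 0 of 3 lies near the latter share. MDM2 and CCNG1 were called in G13R cells under some of the alternatives. MDM2 (chromosome 12, 69201956 to 69239214), the ubiquitin ligase of p53, had 74.9 and 78.4 FPKM in G13R serum libraries, against 52.3 and 65.4 FPKM in G13R normal libraries. In GFP cells MDM2 had 99.5 and 116 FPKM after serum, against 69.8 and 64.8 FPKM in normal growth. Serum libraries were higher without overlap in both, with log2 fold changes of 0.38 ± 0.12 in G13R cells (limma, adjusted p = 0.0593) and 0.67 ± 0.12 in GFP cells (adjusted p = 0.00261). CCNG1 (chromosome 5, 162864575 to 162873157), the cyclin G1 gene, whose product recruits phosphatase 2A to MDM2, had 60.6 and 52.4 FPKM in G13R serum libraries, against 45.9 and 45.1 FPKM in G13R normal libraries. In GFP cells CCNG1 had 68.4 and 97.3 FPKM after serum, against 44.4 and 45.5 FPKM in normal growth. The GFP serum libraries differed much among themselves but both lay above the others, for a log2 fold change of 0.85 ± 0.15 (limma, adjusted p = 0.00228), against 0.30 ± 0.15 in G13R cells (adjusted p = 0.2). PPM1D, the WIP1 phosphatase that reverses ATM signalling, averaged 26.9 ± 0.825 FPKM in G13R serum and 23.3 ± 0.295 FPKM in G13R normal libraries, and 38.9 ± 6.26 FPKM in GFP serum and 26.2 ± 1.71 FPKM in GFP normal libraries (SD, n = 2 each). Its log2 fold change was 0.20 ± 0.12 in G13R cells (limma, adjusted p = 0.303) and 0.55 ± 0.12 in GFP cells (adjusted p = 0.00815).

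Of the death receptor genes, FAS alone passed the test, and only the 3 receptors FAS, TNFRSF10B and TNFRSF10C reached the filter on low values. FAS (chromosome 10, 90750414 to 90775542), the receptor of the FAS ligand, averaged 21.2 ± 0.911 FPKM in G13R serum and 18.01 ± 0.213 FPKM in G13R normal libraries, and 28.6 ± 2.23 FPKM in GFP serum and 17.8 ± 1.66 FPKM in GFP normal libraries (SD, n = 2 each). It rose in GFP cells by 0.65 ± 0.12 on the log2 scale (limma, adjusted p = 0.00254), and its value in G13R cells was 0.23 ± 0.12 (adjusted p = 0.224). TNFRSF10B, the TRAIL receptor DR5, was lower after serum without overlap in both kinds of cell. It had 44.4 and 49.8 FPKM in G13R serum libraries, against 59.7 and 56.4 FPKM in G13R normal libraries, and 46.7 and 52.7 FPKM in GFP serum libraries, against 58.4 and 64.2 FPKM in GFP normal libraries. The log2 fold changes of TNFRSF10B were -0.30 ± 0.10 in G13R cells (limma, adjusted p = 0.084) and -0.30 ± 0.10 in GFP cells (adjusted p = 0.0506), so neither passed the test. TNFRSF10C, a TRAIL decoy receptor, was between 1.94 and 6.61 FPKM over all libraries and did not pass the test either. Its log2 fold changes were 0.80 ± 0.26 in G13R cells (limma, adjusted p = 0.0656) and 0.42 ± 0.26 in GFP cells (adjusted p = 0.239). The TNFRSF10 genes are neighbours that share parts of their sequence, so the division of reads among them is uncertain.

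Among the 10 intracellular death genes, 2 rose and 0 fell in G13R cells, and 6 rose and 1 fell in GFP cells. PMAIP1 (chromosome 18, 57567180 to 57571538), which encodes the BH3-only protein NOXA, had 87.3 and 98.03 FPKM in G13R serum libraries, against 51.5 and 50.4 FPKM in G13R normal libraries. In GFP cells PMAIP1 had 93.8 and 88.8 FPKM after serum, against 56.4 and 49.1 FPKM in normal growth. PERP (chromosome 6, 138411923 to 138428648), a membrane protein of desmosomes and of p53-dependent death, had 17.6 and 18.7 FPKM in G13R serum libraries, against 10.2 and 10.8 FPKM in G13R normal libraries, and 17.2 and 17.9 FPKM in GFP serum libraries, against 11.2 and 11.8 FPKM in GFP normal libraries. Both genes were higher after serum in the 2 kinds of cell, and their libraries did not overlap. Mean FPKM after serum was 1.82 times that of normal growth in G13R and 1.73 times in GFP cells for PMAIP1, and 1.73 times in G13R and 1.52 times in GFP cells for PERP. The log2 fold changes of PMAIP1 were 0.85 ± 0.10 in G13R (limma, adjusted p = 0.000933) and 0.78 ± 0.10 in GFP cells (adjusted p = 0.000481), and those of PERP 0.74 ± 0.12 in G13R (adjusted p = 0.00419) and 0.57 ± 0.12 in GFP cells (adjusted p = 0.00545). These were the 2 members whose call in G13R cells was kept under every alternative tried.

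The largest change of all members was that of TP53INP1 (chromosome 8, 95938200 to 95961639), a stress protein of p53 phosphorylation and autophagy. It had 6.86 and 8.31 FPKM in G13R serum libraries, against 3.88 and 3.38 FPKM in G13R normal libraries. In GFP cells TP53INP1 had 12.2 and 25.3 FPKM after serum, against 3.59 and 4.93 FPKM in normal growth. It rose in GFP cells with a log2 fold change of 1.83 ± 0.28 (limma, adjusted p = 0.0013), and its 0.89 ± 0.28 in G13R cells did not pass (adjusted p = 0.065), although the serum libraries were above those of normal growth in both. The GFP serum libraries differed from each other by more than any other pair of this gene, and over the alternatives its log2 fold change in GFP cells lay between 1.33 and 2.33. NDUFAF6, whose span overlaps it, was at 14.7 and 19.1 FPKM in G13R serum and 18.7 and 21.7 FPKM in G13R normal libraries, and at 15.5 and 15.6 FPKM in GFP serum and 20.8 and 21.4 FPKM in GFP normal libraries.

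BBC3 (chromosome 19, 47724081 to 47736023), which encodes the BH3-only protein PUMA, had 16.3 and 17.4 FPKM in G13R serum libraries, against 12.8 and 16.0 FPKM in G13R normal libraries, and 20.3 and 26.2 FPKM in GFP serum libraries, against 13.1 and 12.8 FPKM in GFP normal libraries. It rose in GFP cells by 0.79 ± 0.15 on the log2 scale (limma, adjusted p = 0.00388) and was at 0.22 ± 0.15 in G13R cells (adjusted p = 0.36). APAF1 (chromosome 12, 99038919 to 99129204), the scaffold of the apoptosome, had 2.48 and 3.01 FPKM in G13R serum libraries, against 4.51 and 2.79 FPKM in G13R normal libraries, and 5.27 and 4.57 FPKM in GFP serum libraries, against 2.05 and 2.84 FPKM in GFP normal libraries. Its G13R groups overlapped, with a log2 fold change of -0.29 ± 0.22 (limma, adjusted p = 0.426), and it rose in GFP cells by 0.79 ± 0.22 (adjusted p = 0.0243). AEN (chromosome 15, 89164527 to 89175513), a nuclease of apoptosis, had 66.6 and 72.0 FPKM in G13R serum libraries, against 69.6 and 75.99 FPKM in G13R normal libraries, and 66.05 and 59.3 FPKM in GFP serum libraries, against 81.6 and 79.4 FPKM in GFP normal libraries. With GADD45A it was one of the 2 members that fell in GFP cells, with a log2 fold change of -0.36 ± 0.09 (limma, adjusted p = 0.0159), and its G13R groups overlapped at -0.07 ± 0.09 (adjusted p = 0.658).

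BAX, the pore-forming effector of mitochondrial death, averaged 256 ± 23.5 FPKM in G13R serum and 217 ± 13.6 FPKM in G13R normal libraries, and 237 ± 13.5 FPKM in GFP serum and 197 ± 0.697 FPKM in GFP normal libraries (SD, n = 2 each). Its rise in GFP cells was small, 0.27 ± 0.09 on the log2 scale (limma, adjusted p = 0.0425), and close to the 0.24 ± 0.09 that did not pass in G13R cells (adjusted p = 0.102). PHLDA3, which encodes an inhibitor of AKT, ZMAT3, an RNA-binding protein, and TRIAP1, a mitochondrial survival protein, passed the test in neither. Their log2 fold changes were 0.27 ± 0.10, 0.06 ± 0.10 and -0.06 ± 0.11 in G13R cells, and 0.22 ± 0.10, 0.11 ± 0.10 and -0.16 ± 0.11 in GFP cells.

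Of the 4 repair genes, 1 rose in G13R cells and 3 in GFP cells. XPC (chromosome 3, 14186647 to 14220283), which finds lesions for nucleotide excision repair, had 21.7 and 25.9 FPKM in G13R serum libraries, against 16.6 and 12.8 FPKM in G13R normal libraries. In GFP cells XPC had 27.4 and 34.6 FPKM after serum, against 14.8 and 15.5 FPKM in normal growth. Its libraries did not overlap between serum and normal growth, with log2 fold changes of 0.67 ± 0.16 in G13R cells (limma, adjusted p = 0.023) and 0.98 ± 0.16 in GFP cells (adjusted p = 0.00164). DDB2 (chromosome 11, 47236493 to 47260767), a damage sensor of the same pathway whose promoter element is printed above, had 42.9 and 47.3 FPKM in G13R serum libraries, against 34.4 and 34.4 FPKM in G13R normal libraries. In GFP cells DDB2 had 62.05 and 83.3 FPKM after serum, against 38.4 and 42.5 FPKM in normal growth. DDB2 rose in GFP cells by 0.82 ± 0.13 (limma, adjusted p = 0.00173) and was at 0.38 ± 0.13 in G13R cells (adjusted p = 0.0887), again without overlap. RRM2B, the p53-inducible subunit of ribonucleotide reductase, averaged 52.95 ± 2.55 FPKM in G13R serum and 48.7 ± 3.91 FPKM in G13R normal libraries, and 67.7 ± 3.16 FPKM in GFP serum and 46.2 ± 0.613 FPKM in GFP normal libraries (SD, n = 2 each). Its log2 fold change was 0.12 ± 0.09 in G13R cells (limma, adjusted p = 0.43) and 0.54 ± 0.09 in GFP cells (adjusted p = 0.00242). POLH, a polymerase that copies past lesions, did not pass the test in either, with 0.44 ± 0.16 in G13R and 0.13 ± 0.16 in GFP cells.

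Of the 4 tested genes of metabolism and stress, 2 rose in G13R cells and 3 in GFP cells. TP53I3 (chromosome 2, 24300303 to 24308731), which encodes the quinone oxidoreductase PIG3, had 50.3 and 55.1 FPKM in G13R serum libraries, against 28.8 and 27.6 FPKM in G13R normal libraries. In GFP cells TP53I3 had 56.9 and 79.7 FPKM after serum, against 27.04 and 27.2 FPKM in normal growth. Both cells thus had clearly separate groups, with log2 fold changes of 0.88 ± 0.14 in G13R (limma, adjusted p = 0.0044) and 1.28 ± 0.14 in GFP cells (adjusted p = 0.000237). FDXR (chromosome 17, 72858619 to 72869156), the ferredoxin reductase of mitochondria, had 64.5 and 69.6 FPKM in G13R serum libraries, against 44.4 and 50.04 FPKM in G13R normal libraries. In GFP cells FDXR had 79.01 and 103 FPKM after serum, against 47.95 and 54.2 FPKM in normal growth. FDXR rose by 0.50 ± 0.13 in G13R cells (limma, adjusted p = 0.0342) and by 0.81 ± 0.13 in GFP cells (adjusted p = 0.00162). GDF15 (chromosome 19, 18485541 to 18499987), a secreted stress cytokine, had 37.4 and 36.3 FPKM in G13R serum libraries, against 26.8 and 26.2 FPKM in G13R normal libraries. In GFP cells GDF15 had 33.8 and 50.6 FPKM after serum, against 23.2 and 20.9 FPKM in normal growth. Its groups did not overlap in either kind of cell, and it rose by 0.88 ± 0.16 in GFP cells (limma, adjusted p = 0.00292) and was at 0.46 ± 0.16 in G13R cells (adjusted p = 0.0858). SESN1, an inhibitor of mTORC1 signalling, was between 4.91 and 11.4 FPKM and did not pass the test in either, with 0.29 ± 0.19 in G13R and 0.45 ± 0.19 in GFP cells.

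In normal growth no p53 target passed the test between G13R and GFP cells: limma called 0 of 28 members higher and 0 lower, against 0.0385% and 0.00769% of all genes tested. At an unadjusted p under 0.05 there was 1 member (3.57%), against 15.1% of all genes. The members' median log2 difference, G13R minus GFP, was -0.09, close to the -0.07 of all genes. Libraries did not overlap for 3 members that were higher and 10 that were lower in G13R cells, against 14.4% and 34.3% of all genes. CDKN1A at -0.20 ± 0.10 (limma, adjusted p = 0.381) and MDM2 at -0.20 ± 0.12 (adjusted p = 0.471) were slightly lower, and the widest differences were -0.41 ± 0.16 for POLH (adjusted p = 0.268) and 0.42 ± 0.22 for APAF1 (adjusted p = 0.423). A difference that misses the threshold with 2 libraries a group does not show equal levels.

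After serum most p53 targets were lower in G13R than in GFP cells, but 1 of 28 members passed the test. PLK2 was called lower, and 0 members were called higher, against 0.492% lower and 0.331% higher over all genes tested. The median log2 difference of the members was -0.33, against -0.03 over all genes, and 23 of 28 (82.1%) were below 0, against 55% of all genes. At an unadjusted p under 0.05 there were 16 of 28 members (57.1%), against 20.8% of all genes. Libraries did not overlap for 15 members that were lower and 2 that were higher in G13R cells, against 29.4% and 22.6% of all genes. The GFP serum libraries enter both this comparison and the serum response of GFP cells, so a library that is high there raises that response and lowers this difference together.

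PLK2, with 76.9 and 74.9 FPKM in G13R serum and 101 and 130.2 FPKM in GFP serum libraries, had a log2 difference of -0.59 ± 0.11 (limma, adjusted p = 0.0487), a call that 12 of 16 alternatives lost. TP53INP1 was farther apart, at -1.12 ± 0.28, and did not pass (limma, adjusted p = 0.0804), with GFP serum libraries that were far from each other. DDB2 at -0.66 ± 0.13 (limma, adjusted p = 0.0547), CCNG1 at -0.53 ± 0.15 (adjusted p = 0.0986), PPM1D at -0.50 ± 0.12 (adjusted p = 0.0744) and MDM2 at -0.48 ± 0.12 (adjusted p = 0.0758) were lower in G13R cells without overlap. CDKN1A, at -0.32 ± 0.10 (limma, adjusted p = 0.122), was also lower without overlap. GADD45A stood on the other side, at 0.45 ± 0.09 (limma, adjusted p = 0.0544), with both G13R serum libraries above both GFP serum libraries. PMAIP1 at 0.02 ± 0.10 and PERP at 0.05 ± 0.12 lay near 0. Leaving out any 1 library other than GFP serum replicate 1 left 0 members called. Without GFP serum replicate 2 the median was -0.17, whereas without GFP serum replicate 1 there were 13 called, 1 higher and 12 lower, and the median was -0.46.

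**Figure D4:**
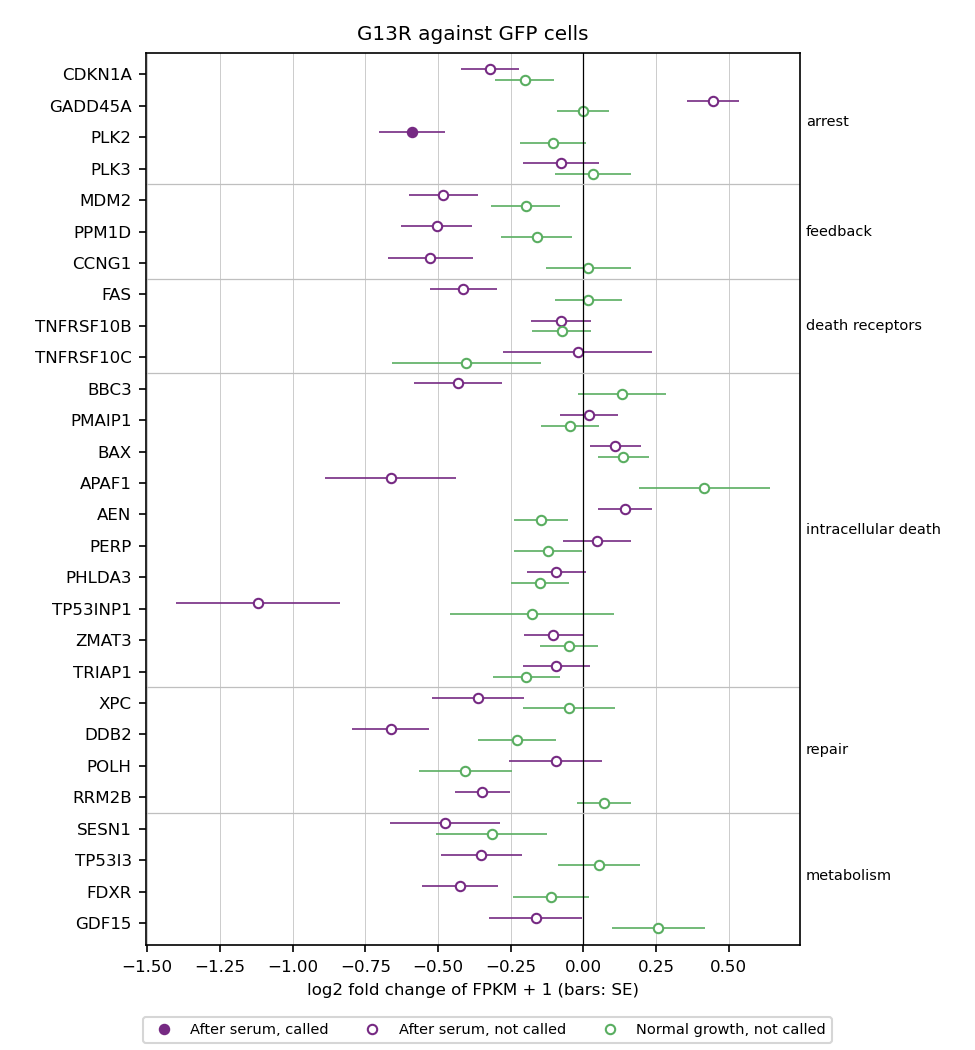
The log2 difference of FPKM + 1 between G13R and GFP cells is plotted for each tested p53 target with its standard error, purple after serum and green in normal growth, filled where called. The purple points lie left of 0 for 23 of 28 genes, with PLK2 the only filled one, while none of the green points is filled and most lie closer to 0.

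Whether serum acted differently in the 2 kinds of cell was tested as the difference of the responses, G13R minus GFP. No member passed, with 0 of 28 called by limma in either direction, as for all genes tested (0%). At an unadjusted p under 0.05 there were 9 of 28 members (32.1%), against 11.8% of all genes. The median was -0.22, against 0.04 over all genes, and 20 of 28 (71.4%) were below 0, against 43.9% of all genes. The members farthest from 0 were APAF1 at -1.08 ± 0.32 (limma, adjusted p = 0.279), TP53INP1 at -0.94 ± 0.40 (adjusted p = 0.4) and BBC3 at -0.56 ± 0.21 (adjusted p = 0.354) on the low side and GADD45A at 0.45 ± 0.13 (adjusted p = 0.275) on the high side. CDKN1A at -0.12 ± 0.14 (limma, adjusted p = 0.781) and MDM2 at -0.28 ± 0.17 (adjusted p = 0.53) lay less than 2 standard errors from 0. That more members were called in GFP than in G13R cells is thus not shown to be a difference in response. Without GFP serum replicate 1 the count was 7, 1 higher and 6 lower, with a median of -0.32, and without GFP serum replicate 2 it was 0 with a median of -0.13.

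Of 18 tested regulators of p53, 0 rose and 1 fell in G13R cells, against 8.26% higher and 4.62% lower over all genes, and 3 rose and 2 fell in GFP cells, against 14.9% and 15.7%, shares near those of all genes. Their median log2 fold changes were -0.03 in G13R and 0.02 in GFP cells, against 0.04 and 0.01 over all genes. HIPK2, a kinase that activates p53, fell in both: it had 8.02 and 7.56 FPKM in G13R serum libraries, against 12.2 and 11.3 FPKM in G13R normal libraries, and 6.3 and 5.48 FPKM in GFP serum libraries, against 10.6 and 9.02 FPKM in GFP normal libraries. Its log2 fold changes were -0.53 ± 0.15 in G13R (limma, adjusted p = 0.0398) and -0.65 ± 0.15 in GFP cells (adjusted p = 0.00829). TP73, a p53 relative, rose in GFP cells by 0.78 ± 0.22 (limma, adjusted p = 0.0222) from low levels, with 3.37 and 2.73 FPKM after serum, against 0.992 and 1.78 FPKM in normal growth. USP7, which removes ubiquitin from p53 and MDM2, had 44.1 and 47.1 FPKM in G13R serum libraries, against 55.5 and 53.7 FPKM in G13R normal libraries, and 41.7 and 34.9 FPKM in GFP serum libraries, against 57.3 and 55.5 FPKM in GFP normal libraries. It fell in GFP cells, with a log2 fold change of -0.55 ± 0.10 (limma, adjusted p = 0.00339), and its -0.26 ± 0.10 in G13R cells did not pass (adjusted p = 0.132). MDM4, the partner of MDM2 that blocks p53, was between 7.71 and 12.1 FPKM and did not pass the test, with 0.06 ± 0.15 in G13R (limma, adjusted p = 0.82) and 0.32 ± 0.15 in GFP cells (adjusted p = 0.143).

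Of 21 further p53 targets, 5 rose, 0 fell and 16 did not pass in G13R cells, where 8.26% of all genes were called higher, and 7 rose, 0 fell and 14 did not pass in GFP cells, where 14.9% were. Their median log2 fold change was 0.18 in G13R cells, against 0.04 over all genes, and 0.34 in GFP cells, against 0.01. Values above 0 were held by 12 of 21 (57.1%) in G13R cells, against 55.5% of all genes, and by 14 of 21 (66.7%) in GFP cells, against 50.9%. BTG2, an antiproliferative gene that growth factors are also known to induce, had 22.4 and 25.1 FPKM in G13R serum libraries, against 12.3 and 11.5 FPKM in G13R normal libraries, and 31.04 and 67.9 FPKM in GFP serum libraries, against 13.6 and 13.8 FPKM in GFP normal libraries. It had the largest change in both, 0.94 ± 0.27 in G13R (limma, adjusted p = 0.0478) and 1.68 ± 0.27 in GFP cells (adjusted p = 0.00162), with GFP serum replicate 2 again the highest library. TRIM22, an antiviral ubiquitin ligase, rose by 0.60 ± 0.14 in G13R (limma, adjusted p = 0.0228) and 1.21 ± 0.14 in GFP cells (adjusted p = 0.000343). SFN, which encodes the 14-3-3 sigma protein of G2 arrest, had 353 and 335 FPKM in G13R serum libraries, against 176 and 188 FPKM in G13R normal libraries, and 289 and 255 FPKM in GFP serum libraries, against 184 and 209 FPKM in GFP normal libraries. Its log2 fold changes were 0.91 ± 0.09 in G13R (limma, adjusted p = 0.000382) and 0.47 ± 0.09 in GFP cells (adjusted p = 0.00424) and the difference between them, 0.45 ± 0.13, did not pass (adjusted p = 0.278). PIDD, which encodes the death domain protein of the PIDDosome, was similar, at 0.90 ± 0.17 in G13R (limma, adjusted p = 0.00985) and 0.50 ± 0.17 in GFP cells (adjusted p = 0.0491). TP53I11 rose by 0.71 ± 0.16 in G13R (limma, adjusted p = 0.0195) and 0.99 ± 0.16 in GFP cells (adjusted p = 0.00173). The limit given above for members with overlapping spans holds here too. PIDD overlaps RPLP2, TRIM22 overlaps TRIM5 and OR56B1, and TP53I11 overlaps TSPAN18. HIPK2 and TP73 above and PLK1 below also overlap other genes.

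The DREAM targets, mitotic and S phase genes that p21 is known to repress indirectly, included some that fell with serum: 0 of 15 rose and 2 fell in G13R cells, where 4.62% of all genes were called lower, and 0 rose and 6 fell in GFP cells, where 15.7% were. Their median log2 fold changes were -0.13 in G13R and -0.25 in GFP cells, against 0.04 and 0.01 over all genes. AURKA, a mitotic kinase, had 74.8 and 76.4 FPKM in G13R serum libraries, against 96.7 and 107 FPKM in G13R normal libraries, and 78.6 and 86.8 FPKM in GFP serum libraries, against 126 and 134 FPKM in GFP normal libraries. Its groups were clearly apart, at -0.42 ± 0.09 in G13R (limma, adjusted p = 0.0138) and -0.65 ± 0.09 in GFP cells (adjusted p = 0.000701). PLK1, another mitotic kinase, fell in both, with log2 fold changes of -0.36 ± 0.10 in G13R (limma, adjusted p = 0.0426) and -0.68 ± 0.10 in GFP cells (adjusted p = 0.000996). CDC20, an activator of the anaphase-promoting complex, fell in GFP cells, with a log2 fold change of -0.50 ± 0.10 (limma, adjusted p = 0.00486). CCNB1, CCNB2, CDK1, FOXM1 and E2F1 did not pass the test in either kind of cell. Between G13R and GFP cells, in normal growth or after serum, and in the difference of responses, limma called 0 genes of these 3 lists. At an unadjusted p under 0.05 there were, in normal growth, 1 of 18 regulators, 3 of 21 further targets and 13 of 15 DREAM targets, against 15.1% of all genes. The median log2 difference of the DREAM targets in normal growth, G13R minus GFP, was -0.33, against -0.07 over all genes. After serum the unadjusted counts were 3 regulators, 8 further targets and 5 DREAM targets, against 20.8% of all genes, and for the difference of responses 1, 6 and 1, against 11.8% of all genes.

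**Figure D5:**
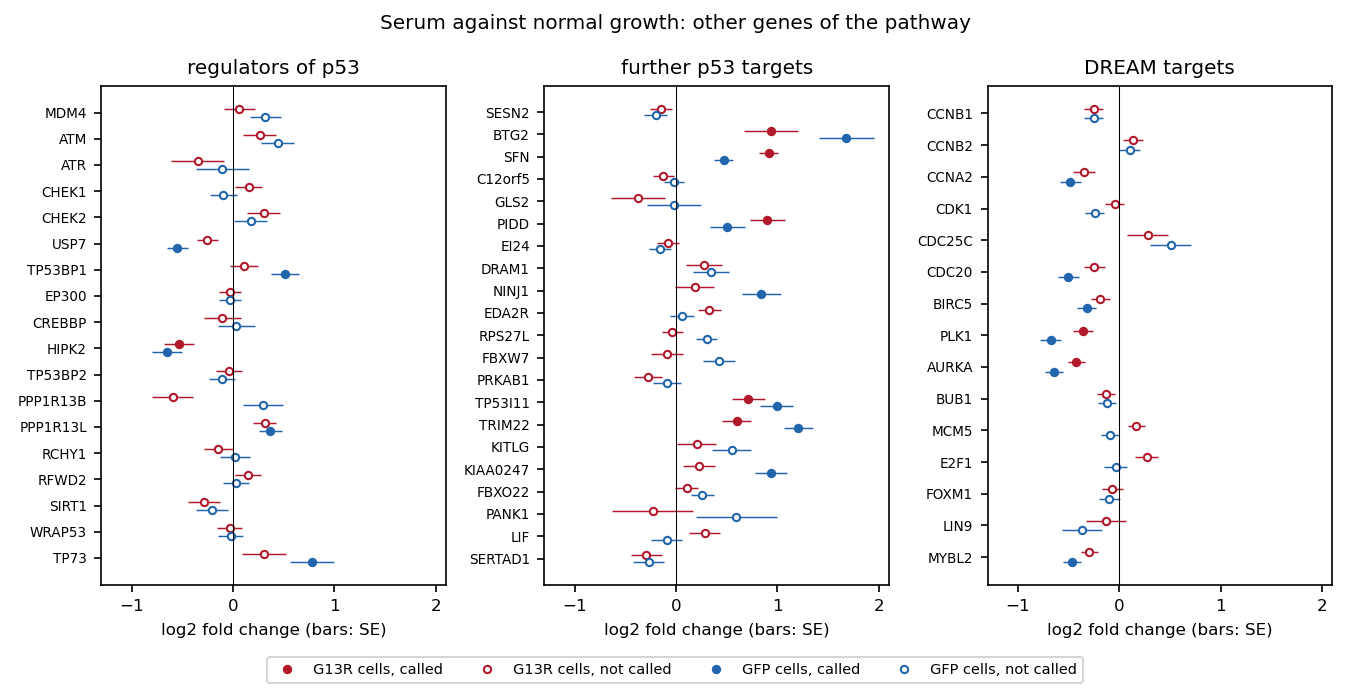
The log2 fold change of FPKM + 1, serum against normal growth, with its standard error is plotted for 18 regulators of p53, 21 further p53 targets and 15 DREAM targets, red for G13R and blue for GFP cells, filled where called. BTG2 and TRIM22 have filled points right of 0 in both kinds of cell, and PLK1 and AURKA have filled points left of 0 in both.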

How the data were processed

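The authors deposited 1 table of FPKM values per gene for 8 poly(A) RNA libraries, sequenced on an Illumina HiSeq, per the labels' protocols. TopHat2 2.0.13, Cufflinks 2.2.1 and the builds hg19 and BDGP5 are named, per the submitters' processing notes, and no gene annotation is named there. Gene spans were taken as hg19 with starts counted from 0 and are given 1-based: for 81.8% of 148 short olfactory receptor genes the raw span was divisible by 3. In the column names, C was taken to mean normal growth.

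The test was limma 3.58.1 (R 4.3.3) on log2(FPKM + 1), with an intensity trend and 1 mean per group. The fit used all 8 libraries (4 residual degrees of freedom) and the 12996 genes that reached 1 FPKM in 2 or more libraries. Benjamini-Hochberg adjustment ran over all genes in each of 5 contrasts, and calls had an adjusted p under 0.05. Adjusted p-values in the text come from this fit. The scale understates changes of low genes. The script was tested on simulated data.

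Among genes under 0.25 FPKM, 8.4% to 16.1% lay at the commonest ratio between libraries, so reads were not recovered, no count test was run and the depth is unknown. The members and the further gene lists were chosen with earlier results of these data known. Named genes were CDKN1A, MDM2, MDM4, called members and up to 3 called genes of each further list per contrast, by size of change; the DREAM genes named as not passing were chosen after their values were seen. Of the regulators of p53, 1 listed gene is not reported here. The mismatch limit of the promoter search was also set late. The alternatives were another pseudocount, other filters, other scalings, other limma settings, the replicate number as a block and leaving out each library.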

Additional observations from a re-analysis of the deposited data

Results flagged for a closer look

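For 3 p53 targets the libraries separated without overlap, but in opposite directions in the 2 kinds of cell or the 2 conditions. How many of all genes tested did so was not counted. Separation in a single comparison was common: in normal growth 14.4% of all genes were higher and 34.3% lower in G13R cells without overlap. After serum, 22.6% of all genes were higher and 29.4% lower in G13R cells without overlap. For serum against normal growth, 4462 of 12996 genes were higher and 3428 lower without overlap in G13R cells. In GFP cells 4330 were higher and 4290 lower. Some separations were small, such as 0.05 for GADD45A with serum in G13R cells (limma, adjusted p = 0.773) and 0.05 for TP53I3 in normal growth (adjusted p = 0.903). GADD45A after serum was above normal growth in both G13R libraries and below it in both GFP libraries, and the difference of the responses, G13R minus GFP, was 0.45 (limma, adjusted p = 0.275). AEN was higher in G13R than in GFP cells after serum and lower in normal growth, a difference of 0.29 on the log2 scale (limma, adjusted p = 0.427). TP53I3 was lower in G13R than in GFP cells after serum and higher in normal growth, a difference of -0.40 (limma, adjusted p = 0.459). None of these differences passed the test, and each group holds 2 libraries.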

How the results depend on the processing

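Of the 21 calls among members in GFP cells after serum, 13 were kept under all 16 alternatives, of the 7 in G13R cells 2, and of the 1 between the cells after serum 0; 0 directions were reversed. Without the filter on low values the counts were 13 in GFP and 2 in G13R cells, and with only the compared libraries 12 in G13R cells. Leaving out a library gave 17 to 21 in GFP cells, 2 to 14 in G13R cells, 0 to 13 between the cells after serum and 0 to 7 for the difference of responses. Between the cells after serum the count was 0 with a pseudocount of 0.1, no filter, median-ratio scaling, only the compared libraries or no intensity trend, and 3 with a filter at 5 FPKM or quantile normalization (1 higher, 2 lower each). In normal growth it was 0 in all, and the members' median of -0.09 was 0.02 under quantile normalization. Quantile normalization also left 0 falling members in GFP cells.

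With the replicate number as a block, 6 members were called between the cells after serum (1 higher, 5 lower), 10 in G13R cells and 22 in GFP cells; 2 further p53 targets and 1 DREAM target were called after serum, 1 DREAM target in normal growth, and 5 DREAM targets for serum in G13R cells. The numbers do not pair the libraries by the labels, and same-numbered libraries correlated in their deviations at only 0.0169 to 0.121.

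Without the filter, regulators called with serum were 2 in GFP and 0 in G13R cells, further targets 4 in GFP and 1 in G13R cells, and DREAM targets 0 in G13R cells. With only the compared libraries there were 2 regulators in GFP cells and 4 DREAM targets in G13R cells. DREAM targets in G13R cells were 4 with a filter at 5 FPKM or quantile normalization, 5 with median-ratio scaling and 0 with no intensity trend, where further targets were 2. Quantile normalization called 2 regulators in G13R cells. A filter at 5 FPKM called 2 further targets between the cells after serum. Leaving out a library gave, for serum in GFP cells, 1 to 5 regulators, 5 to 11 further targets and 4 to 6 DREAM targets, and in G13R cells 0 to 1, 1 to 5 and 0 to 4. Between the cells after serum it gave 0 to 2 regulators, 0 to 7 further targets and 0 to 5 DREAM targets, in normal growth 0 to 1 DREAM targets, and for the difference 0 to 5 further targets. The causes were not tested. Depth is unknown, and 2 libraries a group limit every value.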
